A study of Mus musculus with 4 samples.

Results

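Carbonic anhydrase genes were followed on 4 two-dye arrays of RNA from the CA1 field of the mouse hippocampus, which compared MK C+S with MK, 1 array at each of 1, 2, 4 and 6 h. The genes sought were Car1, Car2, Car3, Car4, Car5a, Car6, Car7, Car8, Car9 and Car12, and every spot annotated to one of these 10 genes was taken. The annotation held 8 such spots for 7 genes, of 16281 spots and 10698 named genes in all, and it named no spot for Car8, Car9 or Car12. Car1 drew attention to the family and was selected on its log ratios on these same arrays, where it was among the lowest of all spots at 2 and 4 h, so its values are a description with no test. The family name chose the remaining members, and their own log ratios were not used.

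In the MK C+S group, young male C57BL/6J mice were injected with MK-801 and 1 h later underwent contextual fear conditioning. They were put into a new chamber for 2 min and then given a foot shock of 0.5 mA for 1 s, a sequence run 3 times in all, and went back to the home cage 1 min after the last shock. Mice of the MK group were of the same sex and strain and got the same drug, and their RNA was taken at matched times with no conditioning stated. Both groups thus carried MK-801, a blocker of the NMDA type of glutamate receptor, at a labelled 300 micrograms per g of body weight, a value far above usual mouse doses that is printed as labelled. MK C+S RNA was in the red channel and MK RNA in the green on all 4 arrays, with no dye swap, so dye and conditioning cannot be told apart. The labels do not give the number of mice behind each array, and no time has a second array.

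Carbonic anhydrases interconvert carbon dioxide and water with bicarbonate and a proton, and so set the pace of pH buffering and of bicarbonate supply. Some isozymes work in the cytosol, others in mitochondria, on the cell surface or in secretions. In hippocampus the cytosolic enzymes of pyramidal neurons are known for supplying the bicarbonate that leaves through GABA-A receptor channels, and those on the outer face of membranes for shaping pH in the extracellular space.

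A value here is the deposited log ratio of a spot, read as a base-10 logarithm and centred on the median of the measured spots of its array. Neither the base nor the direction is stated, and the likely reading is MK C+S over MK, so that values above 0 stand for more RNA after conditioning. A spot listed at exactly 0 was read as not measured. Of the 16281 spots, 12586, 14760, 15078 and 14650 were measured at 1, 2, 4 and 6 h. The size threshold was 2-fold (0.301 on the log10 scale). In either direction it was passed by 9.45%, 7.94%, 7.97% and 25.4% of measured spots at 1, 2, 4 and 6 h. The 6 h array was thus the widest. No intensities were used here, so neither the level of any gene nor the presence of CA1 markers as such could be checked. Of 15 listed genes of CA1 pyramidal cells, 10 had a log ratio on at least 1 array, among them Wfs1 and Hpca.

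Car1, the cytosolic isozyme best known from red blood cells and colon epithelium, was measured by 1 spot, number 15631. Its log ratios were -0.42, -2.66, -2.21 and -0.79 at 1, 2, 4 and 6 h. All 4 arrays lay below 0 and past 2-fold, and the 2 and 4 h arrays stood far below the other two. Taken as base-10 ratios of MK C+S over MK, these values are 2.65-fold, 454-fold, 161-fold and 6.13-fold less Car1 RNA in MK C+S. Counted from the lowest spot, Car1 ranked 208, 2, 1 and 307 among the measured spots of the 4 arrays in order of time. The mean over times was -1.52 ± 1.08 (SD, n = 4 arrays), and it lay between -1.88 and -1.14 with any 1 array left out. In tissue RNA, fewer cells of a type and less RNA per cell cannot be told apart.

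**Figure D1:**
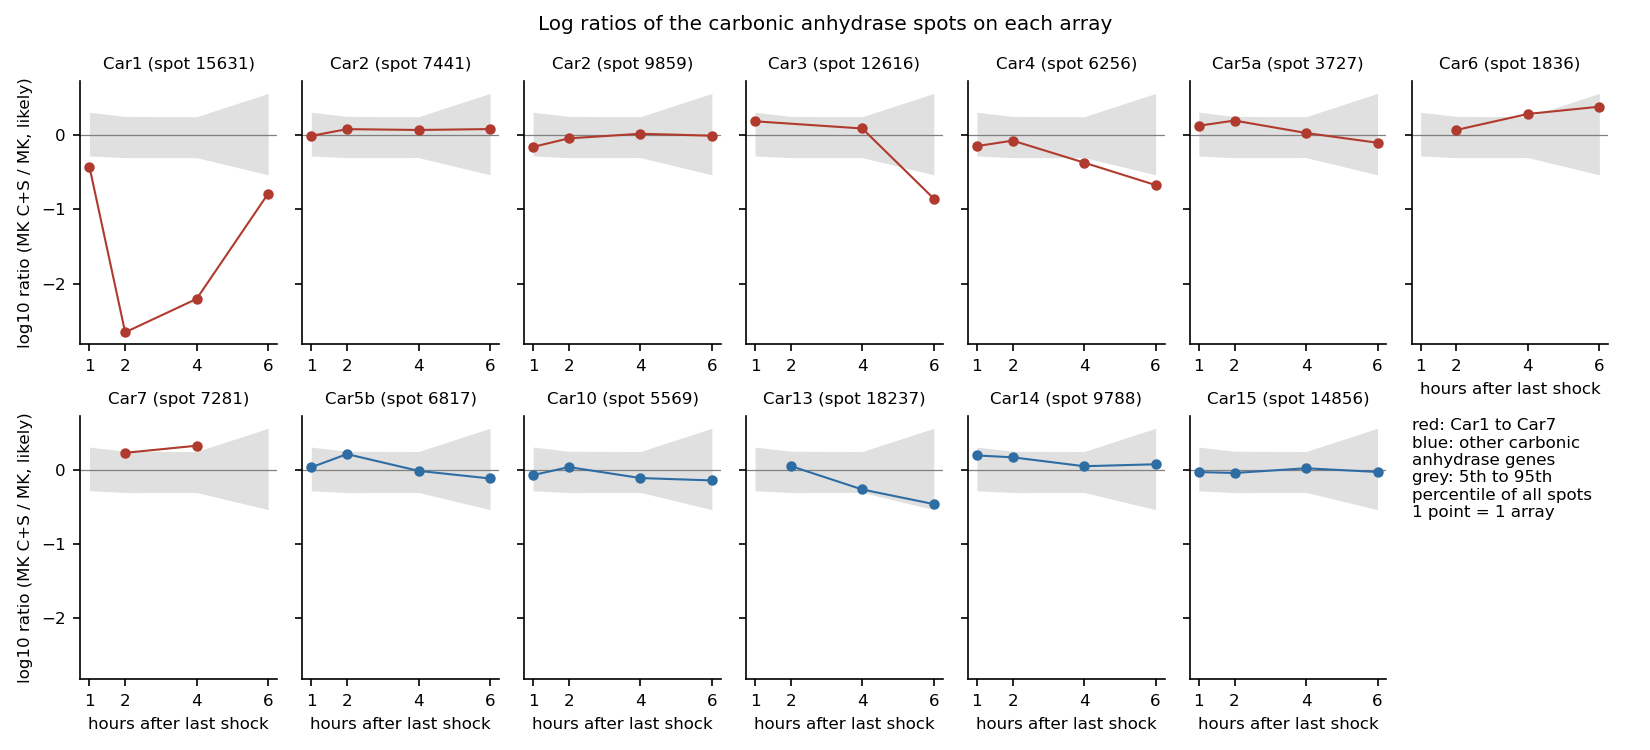
Log10 ratio (y axis, MK C+S over MK as the likely direction) of each of the 13 carbonic anhydrase spots against hours after the last shock (x axis), with 1 point for each array. Grey bands span the 5th to the 95th percentile of all measured spots; Car1 leaves the band at every time and reaches -2.66 at 2 h, while both Car2 spots stay within 0.16 of 0.

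Spots with numbers next to that of Car1 had low values too, and this touches everything said of Car1. The spot just before it, 15630, belongs to the transcription factor gene Atf2 and gave -1.99 at 2 h, -1.04 at 4 h and -0.12 at 6 h. Before that comes spot 15629, of the thyrotropin-releasing hormone receptor gene Trhr, with -0.49, -3.10 and 0.502 at 1, 2 and 6 h and no value at 4 h. These 3 consecutive spots thus held -3.10, -1.99 and -2.66 at 2 h. They end a run of 24 consecutive spot numbers with measured values, since the next number is not in the table and the following 6 spots were listed at 0 on all 4 arrays.

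A second Trhr spot, number 7570, gave 0.16, 0.059, 0.41 and 0.86 at 1, 2, 4 and 6 h. The low value of Trhr at 2 h was therefore not shared by its other spot. The second Atf2 spot was listed at 0 throughout, and Car1 has no second spot. Further off, within 25 numbers of Car1, single low values were found for the cytochrome P450 gene Cyp4b1 (-1.696 at 1 h), the complement receptor gene C3ar1 (-1.02 at 2 h, its only value) and the homeobox gene Tlx2 (-1.56 at 6 h). The other spot of C3ar1 gave -0.062 at 2 h.

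Most neighbours lay near 0. Of the spots within 25 numbers on either side, 35, 39, 37 and 39 were measured at 1, 2, 4 and 6 h, with medians of 0.057, -0.039, 0.020 and -0.048. Those 2-fold or more below 0 numbered 4, 4, 3 and 8, or 11.4%, 10.3%, 8.11% and 20.5%. Of spots more than 300 numbers from Car1, 3.93%, 4.84%, 4.91% and 12.4% were as low. Homer2, which encodes a scaffold protein of glutamate synapses, lay between 0.082 and 0.24 at its spot 18 numbers before Car1. Map4k1, a kinase gene 5 numbers before Car1, gave -0.54, -0.24, 0.082 and -0.069, and Il12rb1, an interleukin receptor gene 21 numbers before it, reached 0.64 at 6 h. With a running median over 51 neighbouring spots subtracted, the Car1 values were -0.48, -2.62, -2.18 and -0.73. Such a median hardly moves with a few low spots, so this step cannot remove an effect confined to Car1 and its nearest neighbours.

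**Figure D2:**
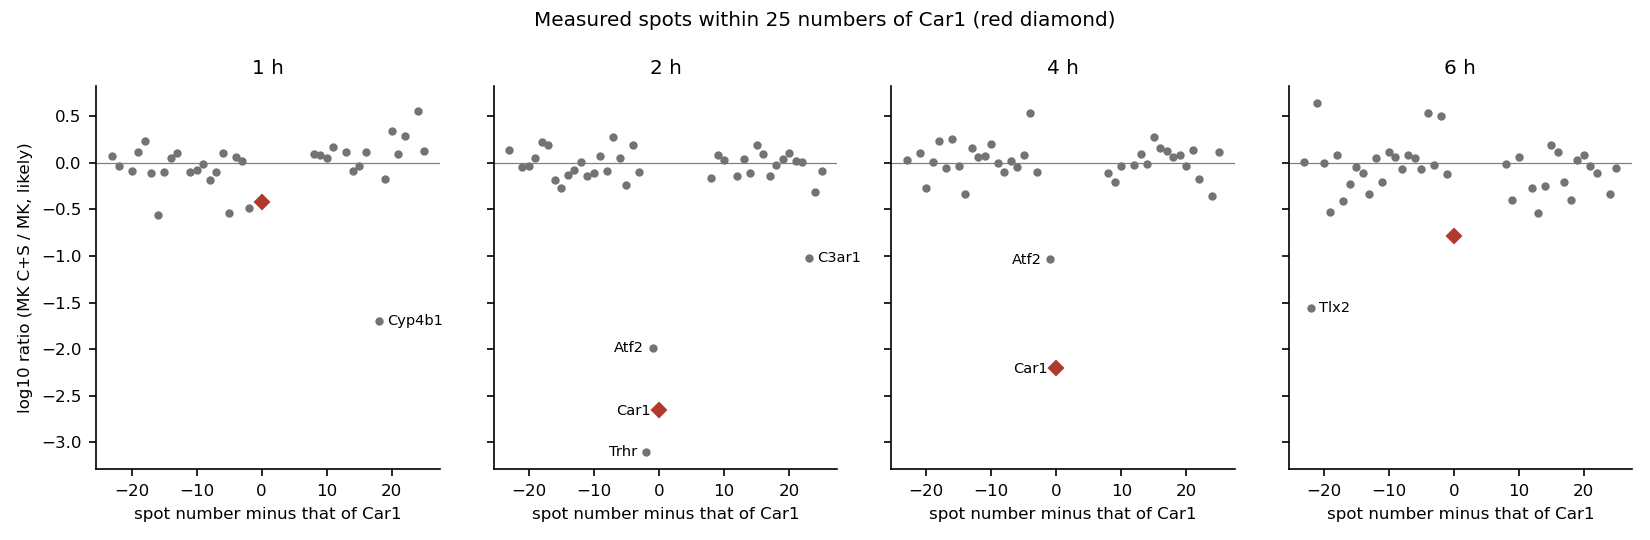
Log10 ratio (y axis) of each measured spot within 25 spot numbers of Car1, against its distance from Car1 in the numbering (x axis), with 1 panel for each array. At 2 h the spots of Trhr, Atf2 and Car1, which have consecutive numbers, lie at -3.10, -1.99 and -2.66, while most of the other spots lie near 0.

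Over a wider stretch, very low values were concentrated around Car1. The stretch of 300 numbers on either side was chosen after the values were seen, and Car1 itself is not counted in it. Log ratios of -1 or lower, a 10-fold difference, made up 5.03% of its measured spots at 1 h (16 of 318), against 0.179% of all other spots. At 2 h they made up 3.52% (13 of 369), against 0.181%. The shares were 1.96% (7 of 358) and 0.163% at 4 h, and 6.02% (23 of 382) and 0.883% at 6 h. In bins of 200 numbers along the whole array, the bin of Car1 held more such spots than any of the other 92 at 1, 2 and 6 h (12, 8 and 15 spots, Car1 among them at 2 h), and at 4 h its 4 spots, Car1 among them, equalled those of the next bin. On the positive side, 2-fold or more above 0 was reached by 6.29%, 1.63%, 1.96% and 8.64% of spots in the stretch, against 5.29%, 2.95%, 2.96% and 12.8% elsewhere, a higher share at 1 h and lower shares later. Very low values also gathered in the bin from 17601 to 17800, with 3, 6, 3 and 11 spots at -1 or lower at 1, 2, 4 and 6 h. The median over all bins was 0, 0, 0 and 1 such spots. What part the place of the Car1 spot has in its values was not tested.

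**Figure D3:**
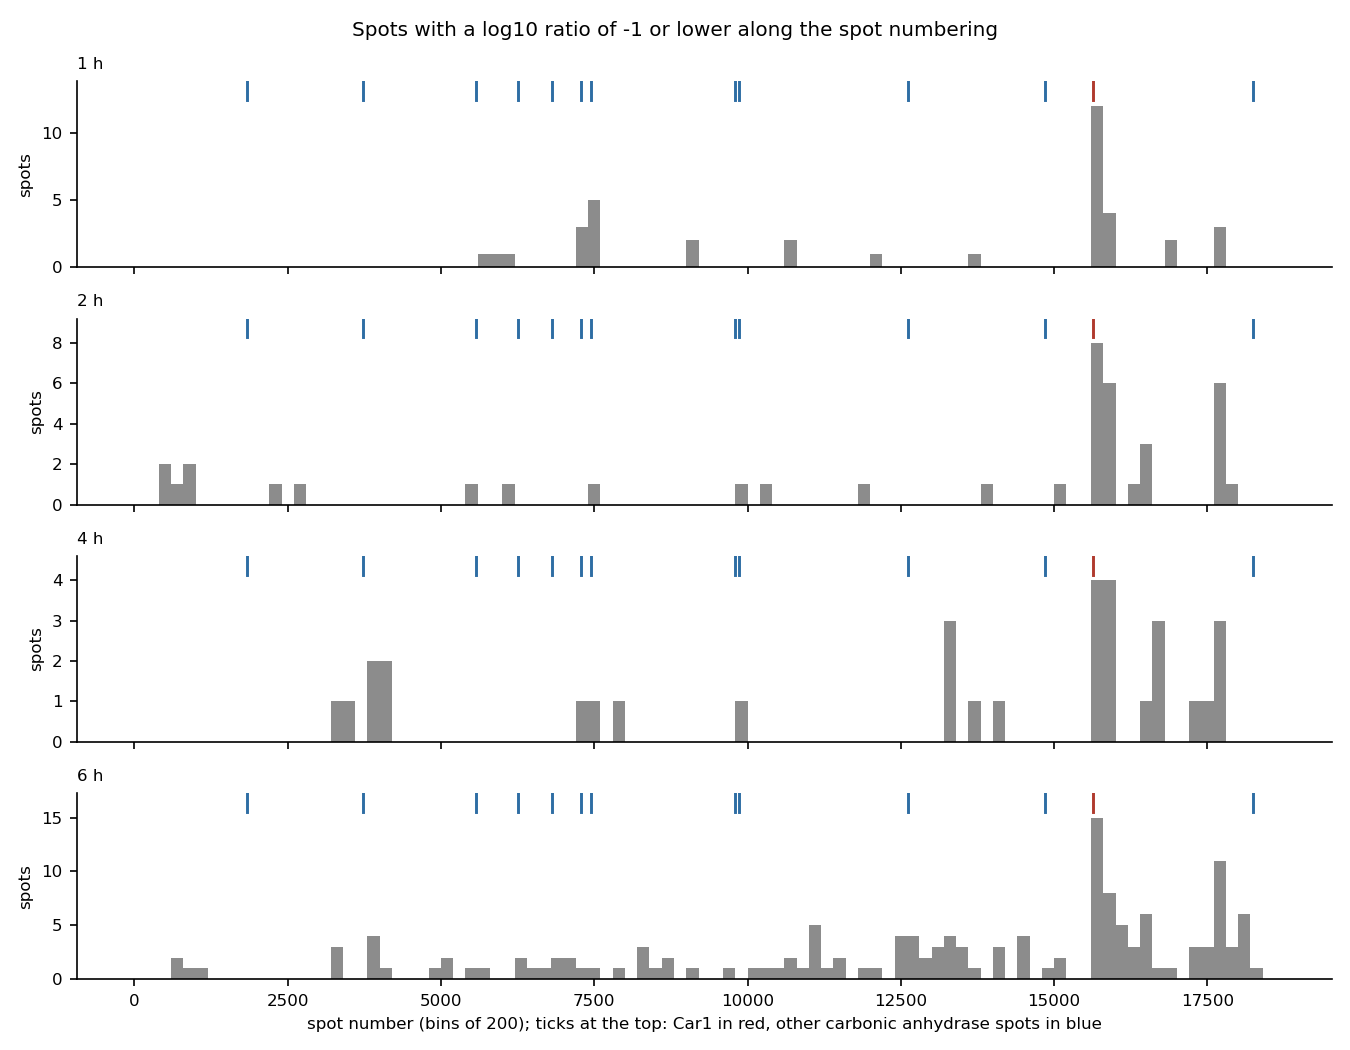
Number of spots with a log10 ratio of -1 or lower (y axis) in bins of 200 spot numbers (x axis), with 1 panel for each array. Ticks mark the carbonic anhydrase spots, Car1 in red; its bin, from 15601 to 15800, holds 12, 8, 4 and 15 such spots at 1, 2, 4 and 6 h.

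Genes with a low spot in this stretch often had a second spot elsewhere, which allowed both to be read side by side. At 1 h, 13 pairs joined a spot that was 2-fold or more below 0 in the stretch to another spot of the same gene outside it, and 1 of the 13 other spots was also past 2-fold lower. At 2 h that held for 3 of 26, at 4 h for 0 of 19 and at 6 h for 1 of 29. The low spots had medians of -0.63, -0.49, -0.50 and -0.73, and the other spots of the same genes -0.049, -0.056, -0.0084 and 0.15. Such disagreement was not particular to the stretch. Among low spots elsewhere on the array, other spots of the gene were also past 2-fold lower in 8.696% of 207 pairs, 7.18% of 418, 5.24% of 267 and 10.4% of 575 at the 4 times.

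**Figure D4:**
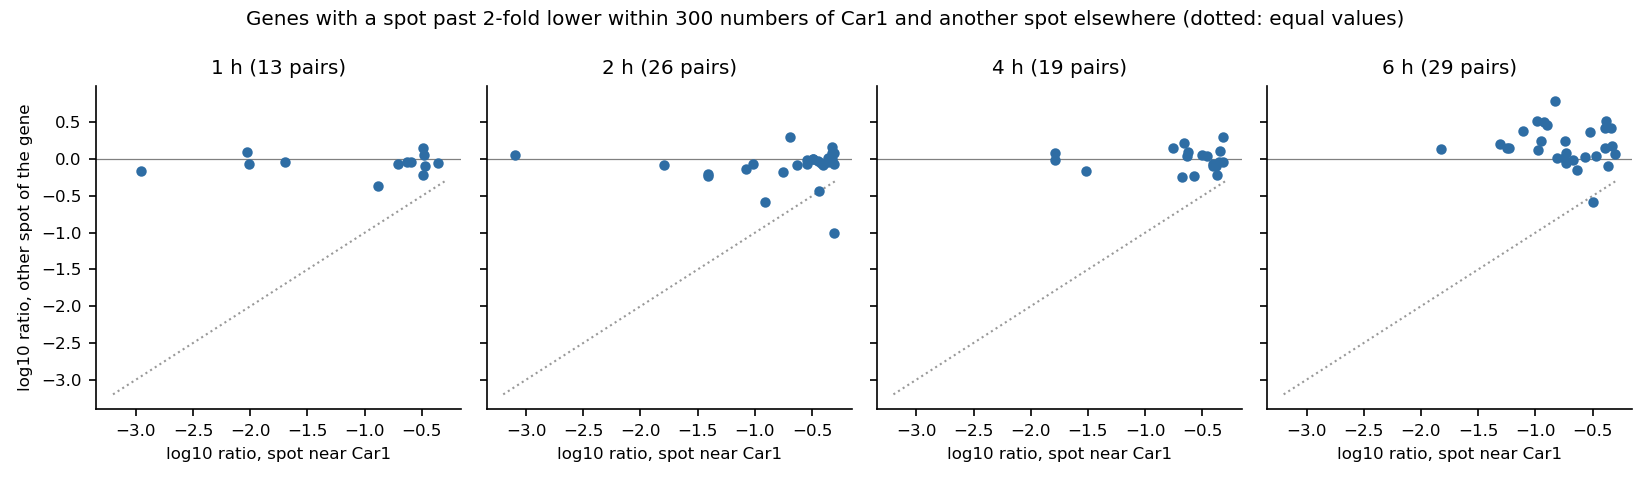
For genes with a spot 2-fold or more below 0 within 300 numbers of Car1, the log10 ratio of that spot (x axis) against that of another spot of the same gene elsewhere (y axis), with 1 panel for each array and a dotted line at equal values. In 13, 26, 19 and 29 pairs at 1, 2, 4 and 6 h most points lie near 0 on the y axis, far above the line.

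By the distance between their 4 log ratios and those of Car1, the nearest named spots were those of Lin7c, a synaptic scaffold gene (distance 1.83 log10 units), Nectin3, an adhesion gene (1.92), Ccdc80 (2.07), the apoptosis activator gene Diablo (2.13), the pyruvate dehydrogenase kinase gene Pdk2 (2.19) and the matrix gene Fbln2 (2.26). All were far from Car1, as none reached its values at both 2 and 4 h. The Lin7c spot gave -1.69, -1.41, -1.79 and -0.73 at 1, 2, 4 and 6 h and lies 237 numbers after Car1. Fbln2, whose only spot lies 226 numbers after Car1, gave -0.79, -0.56, -1.58 and -1.23. Other spots of Lin7c lay between -0.23 and 0.085, and the other Pdk2 spot between -0.15 and 0.21. Nectin3 had 3 other spots. Spot 7106 lay between -0.53 and -0.21 and spot 9763 between -0.26 and -0.12, both below 0 on all 4 arrays. Spot 16093 lay between -0.0040 and 0.21. In Lin7c, Nectin3 and Pdk2, the genes with more than 1 spot, the other spots thus stayed far from Car1 at 2 and 4 h.

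Red blood cells, rich in Car1, can remain in the vessels of a dissected tissue, so their genes were read on the same arrays. Of 27 listed erythroid genes 20 had a value. Those below 0 numbered 10 of 18, 10 of 19, 11 of 19 and 9 of 19 at 1, 2, 4 and 6 h, with medians of -0.017, -0.034, -0.042 and 0.029. None was 2-fold or more above 0, and 0, 2, 1 and 4 were as far below 0. With the spots of each gene averaged, 3.35%, 4.14%, 4.58% and 11.7% of all genes were as far below 0 at 1, 2, 4 and 6 h. The shares as far above 0 were 5.12%, 2.44%, 2.49% and 10.2%. In either direction 8.47%, 6.58%, 7.07% and 21.9% of all genes were past 2-fold. The embryonic globin gene Hbb-y gave -0.067, -0.89, -0.089 and -0.59, and Bpgm, whose enzyme makes the haemoglobin ligand bisphosphoglycerate, gave 0.27, -0.26, -0.71 and 0.094. Tfrc, the transferrin receptor gene, gave 0.093, -0.46, -0.24 and -0.23, but its spots were at -0.054 and -0.87 at 2 h. The adult globin gene Hba-a1, a defining marker, was at 0.095, -0.13, -0.086 and -0.29, the last the average of spots at -0.86 and 0.27. Hbb-b2, an adult globin gene as well, gave 0.063, -0.25, -0.28 and 0.14, lower at 2 and 4 h than at 1 and 6 h as Car1 was, in both of its spots. Alas2, which starts haem synthesis in red cell precursors, was at 0.079, 0.043, -0.042 and -0.12. Hbb-b1, a defining marker too, had no value. The part of red cell RNA in the Car1 values was not tested. The lowest erythroid values were -0.89 at 2 h and -0.71 at 4 h, where Car1 stood at -2.66 and -2.21.

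**Figure D5:**
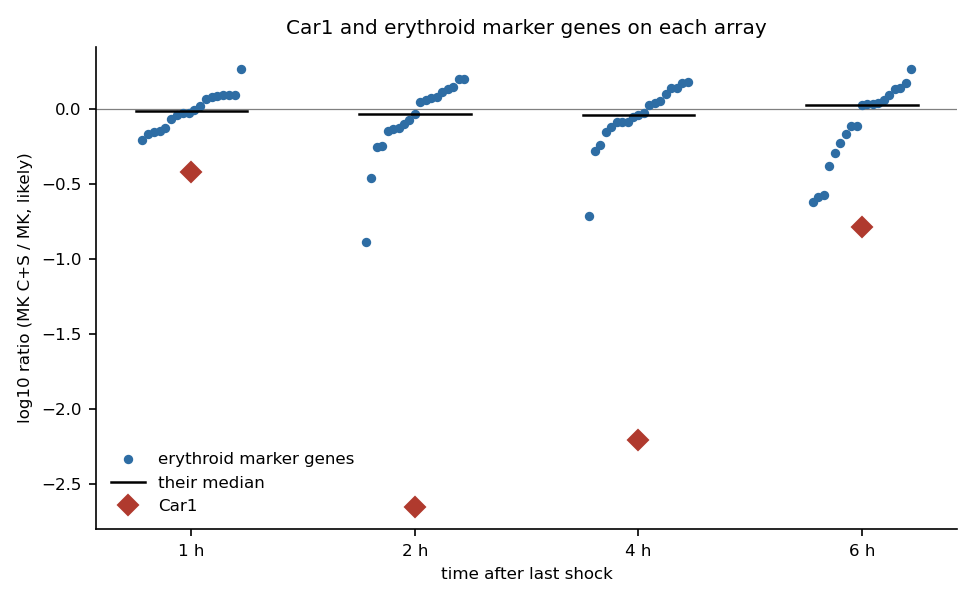
Log10 ratio (y axis) of Car1 (red diamonds) and of the erythroid marker genes (blue points, spots of a gene averaged, sorted within a time for display; black lines are medians) on each array (x axis). The medians lie between -0.042 and 0.029, while Car1 lies at -2.66 at 2 h and -2.21 at 4 h, below every erythroid gene at all 4 times.

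Among the other cytosolic isozymes, Car2 is the fast and widespread one, strong in oligodendrocytes and choroid plexus, and had 2 spots. One of them, number 7441, gave -0.0074, 0.083, 0.072 and 0.084 at 1, 2, 4 and 6 h. Its partner, number 9859, gave -0.16, -0.041, 0.021 and -0.0056. Both spots stayed within 2-fold throughout, with 1 array of the first and 3 of the second below 0. Their means were 0.058 ± 0.044 and -0.046 ± 0.078 (SD, n = 4 arrays), so the spots differ in sign, and the difference between them was not tested. Oligodendrocyte markers were likewise near 0, with 14 of 20 listed genes measured and medians between -0.033 and 0.020 over the 4 times. Of their 56 values 4 were past 2-fold, all lower. Of all genes, 8.47%, 6.58%, 7.07% and 21.9% were past 2-fold in either direction at 1, 2, 4 and 6 h. Their most deviant means were those of the myelin gene Mog (-0.12, with 1 of 3 spots at -0.82 at 6 h), the transcription factor gene Sox10 (-0.12) and the connexin gene Gjc3 (-0.11).

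Car3, a slow isozyme abundant in skeletal muscle and fat, gave 0.19 at 1 h, 0.092 at 4 h and -0.85 at 6 h, with no value at 2 h. The 6 h value, 7.14-fold less in MK C+S as read here, stood apart from the other arrays. At 6 h the 39 measured spots within 25 numbers of it had a median of -0.28, and 16 of them were 2-fold or more below 0 and 0 above. With the running median removed the Car3 value was -0.62. Ckm, the muscle creatine kinase gene, whose spot lies 9 numbers after that of Car3, gave 0.24, 0.035, -0.28 and -0.75. Muscle and fat markers as a whole had medians between -0.085 and 0.0055 over 14 genes with a value. At 6 h 2 of 12 measured were past 2-fold lower and 2 higher, against 11.7% and 10.2% of all genes. Mylpf, a muscle myosin light chain gene, was the highest there at 0.87. The skeletal actin gene Acta1 was between -0.31 and -0.23 on all 4 arrays. Whether the place of the spots has a part in the 6 h value was not tested.

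Car7 is the cytosolic isozyme of hippocampal neurons, where its appearance in development is known to promote excitatory GABA-A responses. Its spot gave 0.23 at 2 h and 0.33 at 4 h and was not measured at 1 and 6 h. The 4 h value was just past 2-fold, at 2.13-fold more in MK C+S as read here. Genes of GABA-A receptors and chloride transport had medians between -0.039 and 0.046, with 12 of 18 listed genes measured. Slc12a2, the chloride-importing cotransporter gene, was above 0 on all 4 arrays at 0.096, 0.21, 0.11 and 0.11. The receptor subunit gene Gabrg3 averaged between 0.030 and 0.31, with spots at -0.46, 0.68 and 0.698 at 6 h. The chloride channel gene Clcn3 averaged 0.011, -0.32, -0.065 and -0.13, with spots at -0.69 and 0.049 at 2 h. Over the 4 arrays 2 of 44 values of this list were past 2-fold higher and 1 lower. The shares of all genes past 2-fold in either direction were 8.47%, 6.58%, 7.07% and 21.9% at 1, 2, 4 and 6 h.

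Car4, an enzyme anchored to the outer cell surface and present on the capillary endothelium of brain, had the lowest mean after Car1 among members measured on every array. It gave -0.15, -0.072, -0.37 and -0.67 at 1, 2, 4 and 6 h. All 4 arrays were below 0, and those at 4 and 6 h were past 2-fold, the last with 4.69-fold less RNA in MK C+S as read here. The mean of -0.31 (SE 0.104) did not pass limma's moderated test, with an unadjusted p of 0.0222 and an adjusted p of 0.431. Its slope of -0.116 log10 units per h (SE 0.0309) did not pass either, with an unadjusted p of 0.00739 and an adjusted p of 0.148. Without the 6 h array the slope was -0.085, with an adjusted p of 0.692, and the mean was -0.20. Spots near Car4 in the numbering had medians between -0.037 and -0.000043, and subtracting the running median left -0.11, -0.037, -0.34 and -0.69.

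Endothelial and mural markers also lay mostly below 0 at 2 and 4 h, with 14 of 17 negative at each of these times and medians of -0.13 and -0.12. At 1 and 6 h 9 and 8 of 17 were negative, with medians of -0.069 and 0.0031. Kdr, a VEGF receptor gene, gave 0.065, -0.32, -0.32 and -0.61. The tight junction gene Cldn5 gave -0.46, -0.81, -0.13 and 0.0031, and the transporter gene Slco1a4 gave -0.22, -0.36, -0.53 and -0.089. At 6 h, where Car4 was lowest, 4 of 17 genes were past 2-fold lower and 1 higher, against 11.7% and 10.2% of all genes. The list's median was -0.038 with the median of a gene's spots in place of their mean. It was 0.14 with the running median over neighbouring spots subtracted. The endothelial genes Pecam1 and Flt1 were at -0.37 and -0.32 at 6 h, and the pericyte gene Pdgfrb at 0.73. Of the 17 genes 9 were above 0 at 6 h, among them the endothelial genes Emcn (0.22), Tie1 (0.18) and Esam (0.17). Pecam1 was at 0.46 at 2 h. The part of endothelial RNA in the Car4 values was not tested.

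Car5a, a mitochondrial isozyme known mainly from liver, gave 0.13, 0.20, 0.031 and -0.10 at 1, 2, 4 and 6 h. None of these passed 2-fold, and the sign turned at 6 h. Its mean was 0.065 (SE 0.0656, adjusted p = 0.713 by limma) and its slope -0.054 per h (SE 0.0289, adjusted p = 0.440). Car6, the isozyme secreted in saliva, gave 0.072, 0.29 and 0.39 at 2, 4 and 6 h, and was not measured at 1 h. All 3 of its values were above 0, and the 6 h value was past 2-fold, on the array where 25.4% of all spots were.

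Counted over the spots, 1 of 6 measured was past 2-fold at 1 h and 1 of 7 at 2 h, Car1 in both cases. At 4 h there were 3 of 8, with Car1 and Car4 lower and Car7 higher. At 6 h there were 4 of 7, with Car1, Car3 and Car4 lower and Car6 higher. Car1 was chosen for its value, and with so few spots the remaining counts can be read only beside the shares of 9.45%, 7.94%, 7.97% and 25.4% of all spots given above.

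Across all 11488 spots measured on all 4 arrays, limma's moderated test called 0 (0%) in the mean over times and 0 (0%) in the slope on hours at an adjusted p under 0.05, with 1254 and 1868 spots at an unadjusted p under 0.05. Besides Car1, 4 member spots could be tested, both of Car2 and those of Car4 and Car5a. In each fit the spot of Car4 alone had an unadjusted p under 0.05. For the first Car2 spot the adjusted p was 0.669 in the mean and 0.899 in the slope, and for the second 0.752 and 0.754. Leaving out the 4 h array gave 1 call in the mean and 766 in the slope, and leaving out the 6 h array gave 3 and 23, none of them a member other than Car1, for which no test is given. These tests take the spread between times as error, and nothing says that the arrays came from separate batches of mice. A slope that was not called says little, since on simulated data the fit called 3 of 100 spots changed by 1 log10 unit.

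Carbonic anhydrase genes outside the 10 sought were read in the same way, and 5 of 6 had a spot. Car14, a membrane-spanning isozyme found on neuronal membranes, was above 0 on all 4 arrays at 0.198, 0.17, 0.053 and 0.079, with a mean of 0.13 (SE 0.0539, adjusted p = 0.463 by limma). Its neighbours in the numbering had medians of 0.080 and 0.11 at 1 and 2 h. Car10, a brain protein of the family without enzyme activity, gave -0.067, 0.041, -0.11 and -0.14. The mitochondrial isozyme gene Car5b gave 0.038, 0.22, -0.0098 and -0.11, on the same side of 0 as Car5a at 1, 2 and 6 h. Car15, a membrane-anchored isozyme, stayed between -0.038 and 0.025. Cytosolic Car13 gave 0.055 at 2 h, -0.26 at 4 h and -0.46 at 6 h, with neighbour medians of -0.13, -0.18 and -0.12. Only the 6 h value of Car13 was past 2-fold among the 19 values of these 5 spots.

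Along the mouse chromosome, RefSeq (assembly GRCm38.p6) places Car13, Car1, Car3 and Car2 in that order as consecutive protein-coding genes. At 2 and 4 h their log ratios did not share a pattern. At 2 h Car1 was at -2.66, while Car13 was at 0.055 and the Car2 spots at 0.083 and -0.041. At 4 h Car1 was at -2.21, Car13 at -0.26, Car3 at 0.092 and the Car2 spots at 0.072 and 0.021. All 3 of Car13, Car1 and Car3 were past 2-fold lower at 6 h, where the Car2 spots were at 0.084 and -0.0056. On that array 1869 of 14650 measured spots were past 2-fold lower. Spots within 25 numbers of Car3 and of Car13 had medians of -0.28 and -0.12 there. Whether the order of the genes has a part in these values was not tested.

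Transporters of bicarbonate, protons and lactate, which act on the products of these enzymes, were near 0 as a group. Of 30 listed genes 21 had a value, with medians of -0.016, -0.024, -0.032 and 0.030 at 1, 2, 4 and 6 h. Past 2-fold were 6 of 80 values, 5 of them lower, beside 8.47%, 6.58%, 7.07% and 21.9% of all genes at these times. Atp4a, the gastric proton pump gene, gave -0.68, -0.28, -0.16 and -0.078 as the average of 2 spots of opposite sign at 1, 2 and 6 h, which were at -1.55 and 0.199 at 1 h. Rhag, a gas channel gene of red cells, gave 0.053, 0.024, -0.19 and -0.54, and the lactate exporter gene Slc16a3 gave 0.021, -0.29, -0.14 and -0.20.

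Remaining lists were read for the settings in which single isozymes are known. Hypoxia response genes, which include the usual partners of Car9, had medians between -0.027 and 0.051, with the glucose transporter gene Slc2a1 between 0.17 and 0.32, Ddit4 at a mean of -0.15 and Ndrg1 at 0.15. Choroid plexus markers had a median of 0.51 at 1 h, with 8 of 10 past 2-fold higher, against 5.12% of all genes. Their medians were -0.040, 0.013 and 0.066 at 2, 4 and 6 h, with 4 of 11, 7 of 12 and 7 of 13 above 0. Ttr, a defining marker, had no value at 1 h and gave -0.66, -1.27 and -0.12 at 2, 4 and 6 h. Cldn2 was at -0.086 at 1 h and -1.82 at 6 h, with no value between. At 1 h neither the Car2 spots, at -0.0074 and -0.16, nor Car14, at 0.198, was past 2-fold. Kl, a co-receptor gene of choroid plexus, had a mean of -0.26 that rests on 1 of its 3 spots, since at 1 h they were at 0.49, 0.71 and -1.91. Aqp1 had a mean of 0.23 and Ecrg4 of 0.26. Epithelial markers had medians between 0.016 and 0.072, with Vil1 at a mean of 0.19, Krt8 at 0.089 and Cdx2 at 0.081. Astrocyte markers had medians between -0.039 and 0.0996, with means of 0.197 for Glul, 0.15 for Aldoc and -0.14 for Slc1a3, whose 3 spots were at -0.24, 0.48 and 0.045 at 6 h. Microglia markers had medians between -0.028 and 0.13, with Fcer1g at 0.196, C1qb at 0.17 and Ctss at 0.14. CA1 pyramidal markers had medians between -0.15 and 0.086, with Neurod6 at a mean of -0.22, Wfs1 at 0.21 and Hpca at -0.13. Hpca changed sign between arrays, at -0.44, -0.13, 0.40 and -0.34 at 1, 2, 4 and 6 h, with both of its spots above 0 only at 4 h.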

How the data were processed

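CA1 RNA of MK C+S and MK mice was compared on 4 arrays with 2 dyes. Each spot has a deposited log ratio, read as log10 from their range of -3.10 to 1.58. Scale, centring and direction are not stated, and the labels name no scanning or normalization step of the authors. Each deposited column had a median of 0. Exact zeros were read as not measured, and the median of the measured spots was subtracted (0.0055, -0.00038, 0.00073 and -0.0054 at 1, 2, 4 and 6 h). The platform annotation named 13738 spots with 1 gene, 52 with several and 2491 with none, and Entrez identifiers of 13694 matched RefSeq (GRCm38.p6). Only spots with 1 gene were named.

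Two-sided tests of the mean over times and of the slope on hours were made with lmFit and eBayes (limma 3.58.1, R 4.3.3) with Benjamini-Hochberg adjustment at 0.05 over all spots measured on all 4 arrays, after a check on simulated data. Single times have no test. Samples were grouped by labelled time.

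The members, the gene lists and the rules for named genes were chosen with earlier results of these data known. Named were every carbonic anhydrase spot, the 6 spots nearest to Car1 in Euclidean distance, the 8 spots within 25 numbers of Car1 with the largest absolute mean, and in each of the lists the 3 largest absolute means among genes measured on all 4 arrays. Hba-a1, Hbb-b2, Hbb-b1, Alas2, Pecam1, Flt1, Pdgfrb, Emcn, Tie1, Esam, Ttr and Cldn2 were named beyond that rule, after their values were seen. Alternatives covered the size threshold, log base, centring, zeros, scaling, averaging of spots, neighbouring spots, array weights, spots on at least 3 arrays and leaving out each array.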

Additional observations from a re-analysis of the deposited data

Results flagged for a closer look

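Log ratios of opposite sign at 2 times, at least 2-fold apart, were found for 3 carbonic anhydrase spots. For Car3 the 6 h value was lower than that at 1 h by a difference of -1.04 log10 units (-0.85 against 0.19) and than that at 4 h by -0.95 (-0.85 against 0.092). For Car13 the difference was -0.51 between 6 and 2 h (-0.46 against 0.055) and -0.32 between 4 and 2 h (-0.26 against 0.055). For Car5b it was -0.33 between 6 and 2 h (-0.11 against 0.22). Each time has 1 array, so differences between single times were not tested. The Car5b slope on hours had an adjusted p of 0.579 in limma, and Car3 and Car13, each without a value on 1 array, were not in that fit.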

How the results depend on the processing

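The mean of Car1 ran from -1.88 to -1.14 with an array left out. It was -1.52, -1.62 and -1.50 without centring, with arrays scaled to the same spread and with the running median subtracted. Car1 was chosen for low values and lay below 0 on all 4 arrays, so these settings could hardly change the sign of its mean. Counts of spots past 2-fold (1, 1, 3 and 4 at 1, 2, 4 and 6 h) moved with the threshold and the log base. They were 2 and 3 at 1 and 2 h at 1.5-fold, and 0 and 1 at 1 and 4 h at 3-fold. With base-2 logs they were 0, 1 and 0 at 1, 4 and 6 h, and with natural logs 0, 1 and 2. The shares of all spots given above hold for 2-fold and base-10 logs only. Counts at other thresholds or bases thus have no share to be read beside. Centring, zeros, scaling, averaging and subtraction of the running median left each count within 1.5 times. In the mean and the slope, 0 member spots other than Car1 were called under any alternative, although among all spots the mean called 4 with array weights, 1 with spots on at least 3 arrays, 1 on leaving out the 4 h array and 3 on leaving out that at 6 h. The slope called 766 with the 4 h array left out and 23 when that at 6 h was dropped. The cause was not tested. The slope of Car4 had adjusted p values from 0.0795 (without the 4 h array) to 0.692 (without the 6 h array). The second Car2 spot had a mean of -0.046, against 0.0061 for both spots averaged. List medians changed side of 0 in 14 of 56 cases with the running median subtracted and in 2 with the median of a gene's spots. No paired analysis was possible because each time has 1 array. Signal over background was not examined, as no intensities were used.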
